A study of Mus musculus with 6 samples.

Results

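AGO2 binding and miRNA assignments were examined in 8 mouse genes for transcription factors that are known targets of miR-9: *Foxp1*, *Foxp2*, *Foxp4*, *Onecut2*, *Nr2e1*, *Hes1*, *Meis1* and *Meis2*. They were chosen by name, out of 49997 genes, and a cluster was counted for a gene when it overlapped the gene body on the same strand. AGO2 chimeric eCLIP had been performed on whole brains of C57Bl/6J mice at P0, the day of birth. This assay crosslinks the Argonaute protein AGO2 to the RNA it holds, sequences the bound fragments of an immunoprecipitate (IP) beside a size-matched input, and ligates part of the miRNAs to the target fragment, so that a chimeric read names the miRNA. There was 1 WT IP library and there were 2 *Mov10* Deletion IP libraries, each with its own input. The *Mov10* Deletion mouse carries a floxed *Mov10* allele (exons 6 and 7) over a *Mov10* mutant allele, and *Emx1*-Cre removes the floxed exons in excitatory neurons, those of neocortex and hippocampus. Because whole brains were used, cells outside the *Emx1* lineage in the same libraries keep 1 *Mov10* allele. With 1 WT library no difference between genotypes could be tested, so all values below are given for each library. The *Mov10* Deletion replicates came from separate brains.

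miRNAs guide AGO2 to mRNAs mainly by pairing of their seed, nucleotides 2 to 8, with the 3’UTR, and bound mRNAs are destabilised or less translated. miR-9 is among the most abundant miRNAs of the developing brain, and both arms of its hairpin, miR-9-5p and miR-9-3p, are loaded into Argonaute. The 8 genes encode regulators of neural identity. FOXP1, FOXP2 and FOXP4 are forkhead proteins of differentiating neurons, and FOXP2 is best known for its link to speech. ONECUT2 is a cut-homeodomain protein. NR2E1 (TLX) is an orphan nuclear receptor that maintains neural stem cells, HES1 is a Notch effector that represses neuronal differentiation genes, and MEIS1 and MEIS2 are TALE homeodomain proteins.

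The mature sequences of the miRNAs that the results turn on, from RefSeq (GRCm38.p6), are shown 5’ to 3’ with the seed in capitals, because the seed defines the match searched for in the targets. let-7a-5p and let-7c-5p shared one seed, and miR-9b-5p had another seed than miR-9-5p. miR-124-3p and miR-466i-5p were also frequent in these genes.
miR-9-5p: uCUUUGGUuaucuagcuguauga
miR-9-3p: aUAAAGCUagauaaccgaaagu
miR-9b-5p: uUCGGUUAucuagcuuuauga
let-7a-5p: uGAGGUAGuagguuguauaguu
let-7c-5p: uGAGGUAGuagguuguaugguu

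Matches to miR-9-5p were searched in the sense strand of the annotated 3’UTRs (GENCODE vM39, GRCm39) of 7 of the 8 genes. The sequence of *Onecut2* was not used here. A match was either ACCAAAG, the complement of nucleotides 2 to 8, or CCAAAGA, the complement of nucleotides 2 to 7 followed by A. There were 9 matches, of which 8 were ACCAAAG (2 in *Foxp1*, 3 in *Foxp2*, 2 in *Foxp4* and 1 in *Nr2e1*) and 1, in *Hes1*, was CCAAAGA. Those in *Foxp1* at 2930 nt and in *Foxp4* at 665 nt from the 3’ end were followed by A. The 3’UTRs of *Meis1* (5690 nt) and *Meis2* (2219 nt) held neither 7-mer. The stretches that lay inside a target cluster listed under miR-9-5p in at least 1 library are shown first, with the match in capitals and the GRCm39 position of the match.
*Foxp1*, chr6:98905230-98905236, minus strand: ttttatttctaaaattACCAAAGa
*Foxp2*, chr6:15438890-15438896, plus strand: aaggctacagctgcaaACCAAAGc
*Foxp4*, chr17:48178720-48178726, minus strand: ccagttaaaacggatgACCAAAGa
*Hes1*, chr16:29886530-29886536, plus strand: tctttttttatgtgatgCCAAAGA
The 5 matches outside any miR-9-5p target cluster follow, since they show that the same 7 bases also occurred without a miR-9-5p assignment. The last 2 of these lay within an AGO2 cluster, and the other 3 did not.
*Foxp1*, chr6:98905039-98905045, minus strand: ctatgtaggcaatggaACCAAAGt
*Foxp2*, chr6:15198470-15198476, plus strand: tgggaattacatgtgaACCAAAGg
*Nr2e1*, chr10:42438426-42438432, minus strand: tcatcaaagtgctgaaACCAAAGg
*Foxp2*, chr6:15439580-15439586, plus strand: atttattttcagtcaaACCAAAGt
*Foxp4*, chr17:48178572-48178578, minus strand: taagttattgtgttaaACCAAAGt

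The libraries differed in how many reads were needed for a call. Enriched clusters were those whose log2 IP over input and −log10 p both reached 3. The files hold no read numbers, but the deposited fold and p-value of a cluster together fixed its reads where both came out as whole numbers. On that scale a cluster with 1 input read needed at least 16 IP reads in the WT library, and 9 (replicate 1) or 8 (replicate 2) for *Mov10* Deletion. An input of 1 was the lowest value that could be inferred and may stand for 0 or 1 reads. The sources used here do not describe how an input of 0 was treated. The *Mov10* Deletion libraries had been given nearly the same cluster list (1562 of the 1563 clusters in the 8 genes had identical coordinates), whereas none of the 805 WT clusters shared its coordinates with them, so cluster numbers were not comparable between genotypes. All 5 neuron markers (*Map2*, *Tubb3*, *Dcx*, *Gap43*, *Stmn2*) had AGO2 clusters in every library, with 2, 4 and 4 of them enriched, in the order WT, replicate 1 and replicate 2 of *Mov10* Deletion. All 5 markers of progenitors and glia also had clusters, with 0, 4 and 2 enriched. Of 3 liver markers 1 had any cluster and none was enriched. All 4 adult globin genes, markers of red blood cells, had AGO2 clusters in every library, with 4, 4 and 3 of them enriched. Of 2 muscle markers 1, 2 and 2 had clusters, and only *Acta1* in replicate 2 had an enriched one (log2 4.25). Their part in the results was not tested. *Mov10* itself had 11 clusters in WT and 9 in each *Mov10* Deletion library, with 1, 0 and 0 enriched, which measures AGO2 binding and does not check the deletion.

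AGO2 clusters were found in all 8 genes in all 3 libraries, and enriched ones in *Foxp1*, *Foxp2*, *Foxp4*, *Onecut2* and *Meis1* (5 of 8 in WT), with *Meis2* in addition in each *Mov10* Deletion library (6 of 8 in each and in both). With a −log10 p of at least 5 the genes called in both fell to 3 (*Foxp2*, *Foxp4* and *Onecut2*), and with at least 16 IP reads in every library, a setting chosen after seeing the data, to 2 (*Foxp2* and *Onecut2*), while WT stayed at 5 under both settings. *Nr2e1* and *Hes1* had none. In whole brain, fewer cells of a type and less bound RNA per cell cannot be told apart. Among all genes with an AGO2 cluster, 18.7% had an enriched one in WT, and for *Mov10* Deletion the shares were 40.9% (replicate 1), 32.1% (replicate 2) and 24.1% (both). *Foxp1*, *Foxp2* and *Meis2*, the longest at 206274 to 597405 nt, had the most clusters. Counted by cluster, 14 of 805 clusters of the 8 genes were enriched in WT (1.74%), 72 of 1563 in replicate 1 (4.61%) and 33 of 1563 in replicate 2 (2.11%), beside 2.11%, 5.18% and 3.1% of all clusters in these libraries. The 8 genes as a group therefore did not exceed the share of enriched clusters of the libraries, and their median log2 IP over input (0.76, 1.06 and 0.99) was at or below that of all clusters (0.76, 1.12 and 1.25).

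*Onecut2* stood apart from the other members. Of its clusters, 6 of 14 were enriched in WT (42.9%), 12 of 24 in replicate 1 (50%) and 9 of 24 in replicate 2 (37.5%). The other 7 genes together had 8 of 791 (1.01%), 60 of 1539 (3.90%) and 24 of 1539 (1.56%). Most of their clusters were intronic (724 in WT and 1419 in each *Mov10* Deletion library). Of their clusters in 3’UTRs, 4 of 33 in WT, 4 of 41 in replicate 1 and 2 of 41 in replicate 2 were enriched. *Foxp4* reached 10 of 46 clusters (21.7%) in replicate 1. *Onecut2*, with a gene body of 58457 nt, thus held 42.9% of the enriched clusters of the 8 genes in WT. In *Mov10* Deletion it held 16.7% (replicate 1) and 27.3% (replicate 2). These clusters come from 1 gene and are not independent of each other. In WT, every enriched cluster of *Onecut2* had 1 input read, the lowest value inferred, as did some of those in *Mov10* Deletion. Their log2 values rest on that input, and so do the highest of *Foxp1* and *Foxp2* in WT.

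**Figure D1:**
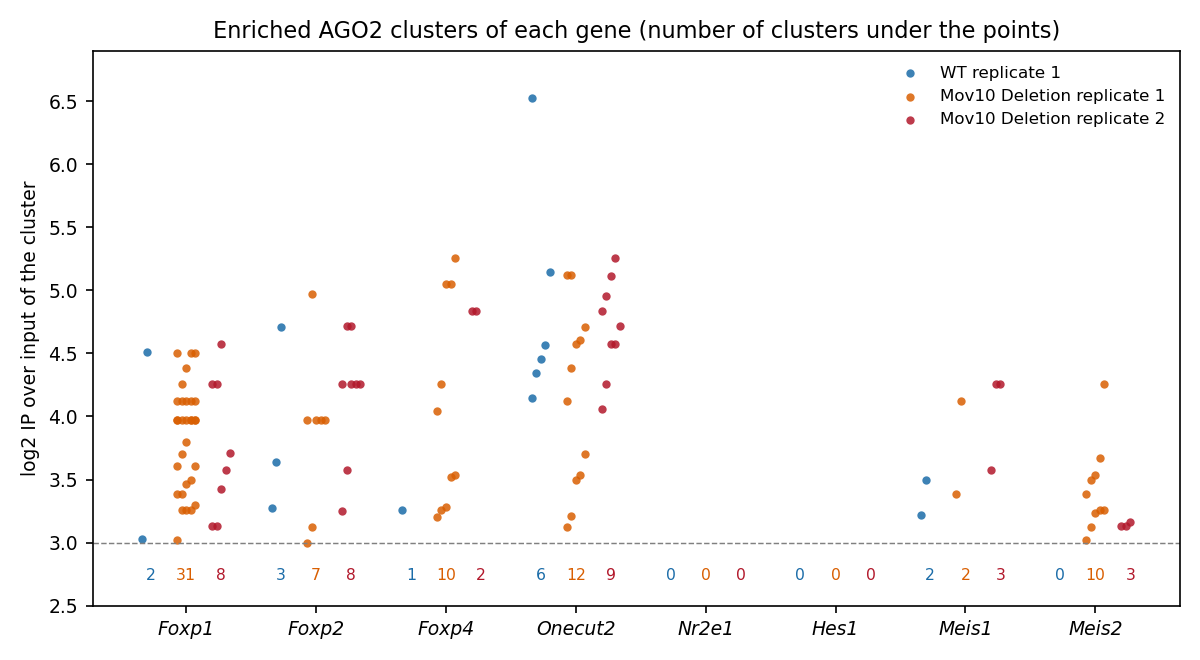
Enriched AGO2 clusters of the 8 genes, by library. Each point is 1 cluster, the y axis gives its log2 IP over input, the dashed line is the threshold of 3, and the numbers give the clusters per gene and library. *Onecut2* held the highest cluster, at 6.52 in WT (109 IP over 1 input reads), while *Nr2e1* and *Hes1* had none in any library.

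miR-9-5p was named in 5 of the 8 genes in WT (*Foxp1*, *Foxp2*, *Foxp4*, *Onecut2* and *Hes1*), in 3 for replicate 1 of *Mov10* Deletion (*Foxp2*, *Onecut2* and *Hes1*) and in 3 in replicate 2 (*Foxp2*, *Foxp4* and *Onecut2*). *Foxp2* and *Onecut2* were named in every library, and *Nr2e1*, *Meis1* and *Meis2* in none. Among all genes with a target cluster, 23.8%, 19.1% and 13.9% had one of miR-9-5p in the same libraries. A target cluster can be listed under several miRNAs, and each listing is an assignment here. miR-9-5p took 12 of 60 assignments of the 8 genes in WT (20%, exact 95% binomial interval 10.8 to 32.3%), 6 of 60 in replicate 1 (10%, 3.76 to 20.5%) and 4 of 29 in replicate 2 (13.8%, 3.89 to 31.7%). In the whole libraries it took 9.12%, 6.69% and 6.86%, which lay below the interval in WT and within it in both *Mov10* Deletion libraries. In WT, *Onecut2* alone held 5 of the 12, among its 15 assignments, and the share without this gene was not determined. The intervals cover counting error only, and assignments within 1 cluster are not independent.

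miR-124-3p, the main neuronal miRNA, was the most frequent in the 8 genes. It took 19 of 60 assignments in WT (31.7%), 26 of 60 in replicate 1 (43.3%) and 11 of 29 in replicate 2 (37.9%), and 42.2%, 34.8% and 36.8% of all assignments. The let-7 family took 12, 7 and 2 assignments. When overlapping clusters of the same miRNA were merged over libraries, the 8 genes held 122 regions, 16 of miR-9-5p and 44 of miR-124-3p. These sets were compared by feature. Of the miR-9-5p regions outside *Onecut2*, 7 of 10 lay in a 3’UTR, 2 in coding sequence and 1 in an intron. Of the miR-124-3p regions, 35 lay in introns, 5 in 3’UTRs, 1 in a 5’UTR and 3 in *Onecut2*, whose features were not determined. Of all AGO2 clusters of the 8 genes, 724 of 805 in WT and 1419 of 1563 in each *Mov10* Deletion library were intronic. The long genes *Foxp1* and *Meis2* held 19 and 9 of the miR-124-3p regions, but 2 and 0 of the miR-9-5p regions. Differences by miRNA and by gene therefore cannot be told apart here.

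**Figure D2:**
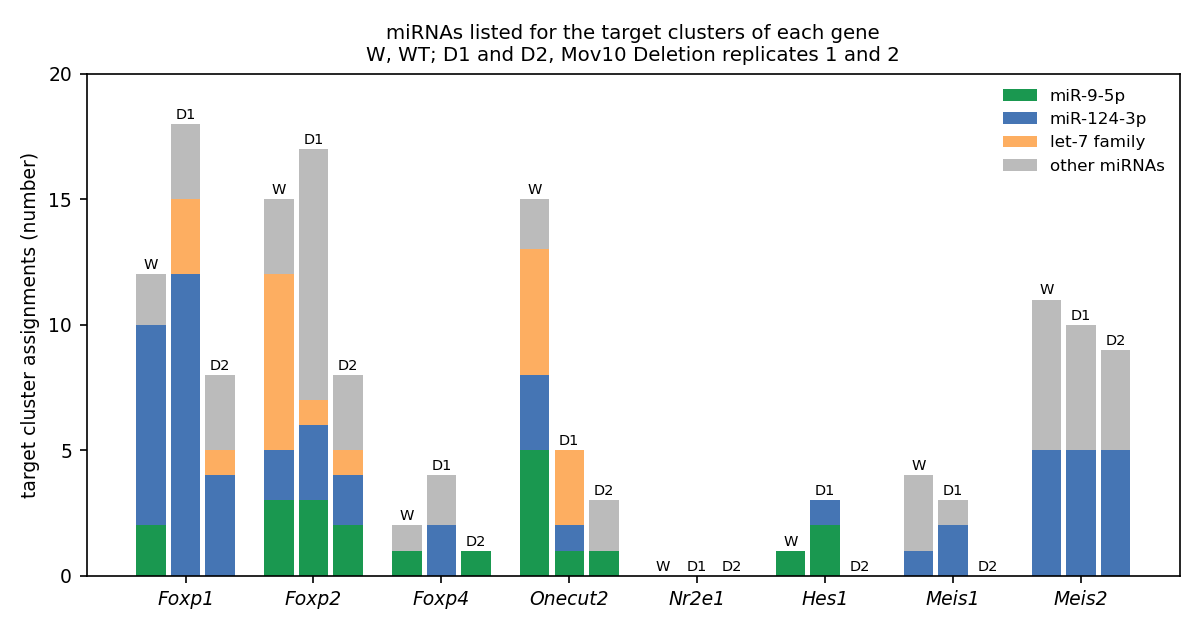
miRNAs listed for the target clusters of the 8 genes. Bars give the number of assignments per gene in WT (W) and the *Mov10* Deletion replicates (D1, D2), split into miR-9-5p, miR-124-3p, the let-7 family and all others. *Foxp2* and *Onecut2* show miR-9-5p in each library, *Meis1* and *Meis2* in none, and *Nr2e1* has no assignment.

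Only 20 of the 122 regions were listed in more than 1 library, 14 in 2 libraries and 6 in all 3. Of the 6, 2 were miR-9-5p regions and both were in *Foxp2*. The others were miR-124-3p regions in *Foxp1* (1) and *Meis2* (2) and a miR-466i-5p region in *Foxp1*. The largest part of the assignments was thus seen in a single library.

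*Foxp2* (chr6:14901349-15441977, mm10, plus strand) had all 4 of its miR-9-5p regions in the 3’UTR. The region at chr6:15438850-15438934, 3085 nt from the 3’ end, was listed under miR-9-5p in all 3 libraries, with deposited scores of 20.2 (WT), 5.07 (replicate 1) and 5.70 (replicate 2). It contained the ACCAAAG at chr6:15438890-15438896 of GRCm39, and 3.82% of all 85-nt windows of the *Foxp2* 3’UTRs held a match. The AGO2 cluster there had 80 IP over 7 input reads in WT (log2 3.27, −log10 p 11.5), 18 over 6 in replicate 1 (log2 2.38, −log10 p 3.68) and 16 over 2 in replicate 2 (log2 4.25, −log10 p 6.57). It passed both thresholds in WT and in replicate 2, and in replicate 1 it missed the fold.

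The other *Foxp2* region listed in all 3 libraries, at chr6:15439995-15440115, 1922 nt from the 3’ end, had miR-9-5p scores of 3.08 in WT and 5.56 and 4.85 in *Mov10* Deletion. It held neither 7-mer. Its AGO2 cluster had 86 over 10 reads in WT (log2 2.86), 35 over 9 in replicate 1 (log2 2.76) and 20 over 4 in replicate 2 (log2 3.58, −log10 p 7.14). Only the last was enriched.

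Between these lay a stretch that carried several miRNAs. In WT the target cluster at chr6:15439773-15439894 was listed under miR-9-3p (score 12.3), let-7c-5p (7.93), let-7a-5p (5), let-7e-5p (3.92), miR-16-5p (3.2) and miR-9-5p (3.07). In replicate 1 the overlapping cluster was listed under miR-16-5p (4.92), miR-9-3p (4.90) and let-7c-5p (4.78), and in replicate 2 under miR-27a-3p (3). It was the strongest *Foxp2* cluster by p-value in WT, with 133 IP over 9 input reads (log2 3.64, −log10 p 20.1), and had 73 over 16 (log2 2.99) and 33 over 10 (log2 2.98) in *Mov10* Deletion, just under the threshold of 3. The only match to miR-9-3p in the *Foxp2* 3’UTRs, to its nucleotides 2 to 7 followed by A, lay 1241 nt from the 3’ end and outside this cluster.

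Another miR-9-5p region of *Foxp2*, 2492 nt from the 3’ end, was listed in replicate 1 alone (score 6.43). It sat on the broadest AGO2 cluster of the 3’ end, which had 141 over 40 reads in WT (log2 1.57), 68 over 29 in replicate 1 (log2 2.03) and 58 over 21 in replicate 2 (log2 2.72). The third ACCAAAG of *Foxp2*, 2393 nt from the 3’ end, lay within the same AGO2 cluster but outside the target cluster. Outside the 3’UTR, *Foxp2* had miR-124-3p clusters in introns and, in replicate 2, a pair of abutting intronic clusters listed under miR-9b-5p (4.27 and 4.88), whose seed is not that of miR-9-5p. By log2, the highest enriched clusters of *Foxp2* were intronic or coding: 4.71 in WT (31 over 1 reads), 4.97 in replicate 1 (18 over 1 reads, in coding sequence) and 4.71 in replicate 2 (11 over 1 reads), each at a different place.

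**Figure D3:**
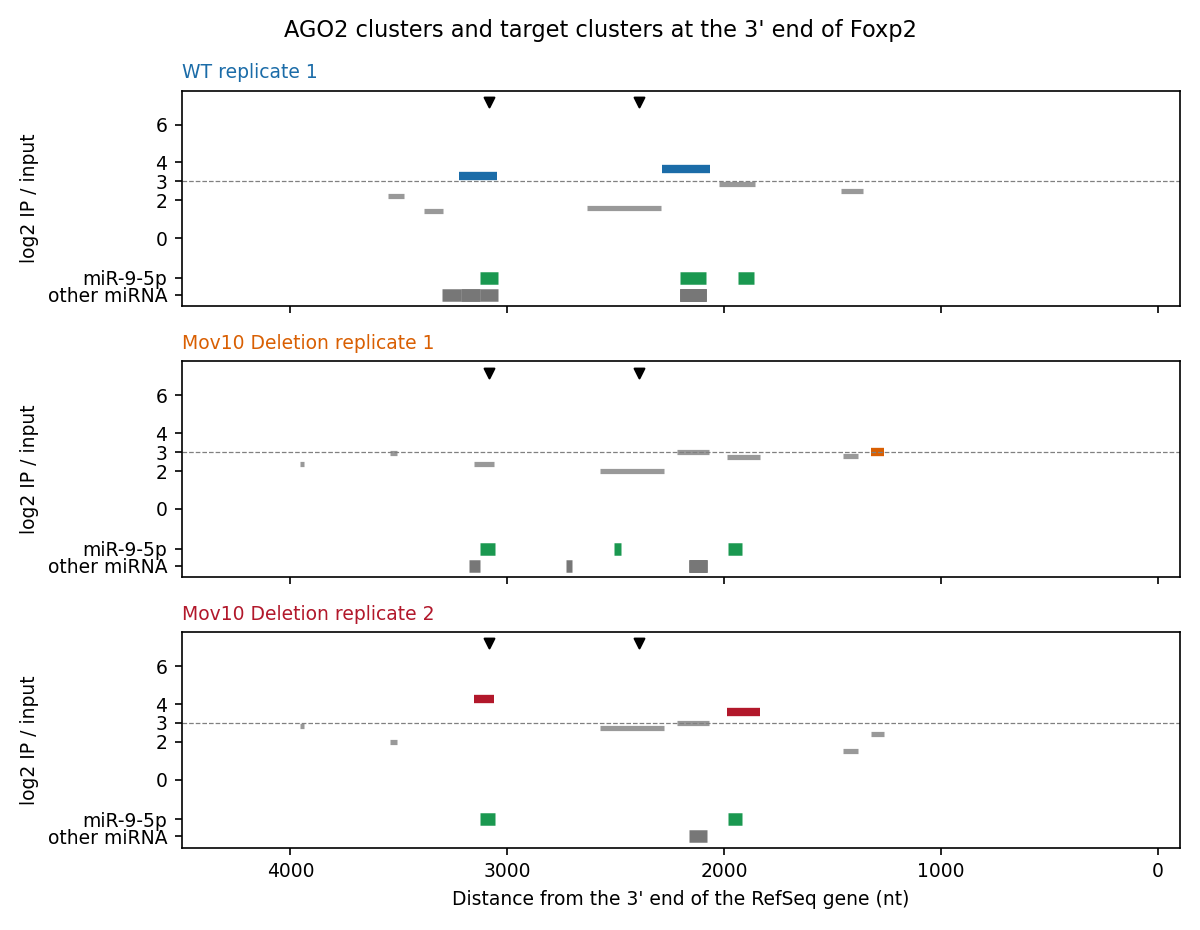
AGO2 clusters and target clusters in the last 4500 nt of *Foxp2*, by library. The x axis is the distance from the 3’ end of the RefSeq gene in nt, bars show the extent of each AGO2 cluster at its log2 IP over input (coloured where enriched, grey otherwise), the rows below 0 show target clusters of miR-9-5p (green) and of other miRNAs (grey), and triangles mark ACCAAAG. The miR-9-5p clusters at 3085 nt and 1922 nt recur in all 3 libraries, and the triangle at 3083 nt lies over the former.

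*Foxp1* (chr6:98925342-99522746, mm10, minus strand) had 2 miR-9-5p regions, both in WT alone. The first, at chr6:98928203-98928341 in the 3’UTR, 2930 nt from the 3’ end, had a score of 5.65 and held the ACCAAAG followed by A; 5.64% of 139-nt windows of this 3’UTR held a match. Of the AGO2 clusters that it overlapped, the one with the higher log2 had 29 over 3 reads in WT (log2 3.03, −log10 p 4.74), 20 over 6 in replicate 1 (log2 2.54) and 6 over 1 in replicate 2 (log2 3.84, −log10 p 2.46). Only the WT value passed both thresholds. The AGO2 cluster that contained the match itself had more reads and the smaller p-value in each library, with 59 over 8 in WT (log2 2.64, −log10 p 7.27), 32 over 11 in replicate 1 (log2 2.34, −log10 p 6.26) and 19 over 7 in replicate 2 (log2 2.69, −log10 p 5.48), and was not enriched in any. The second region lay in an intron, 570645 nt from the 3’ end (score 3.42), with no WT AGO2 cluster over it. The second ACCAAAG of the *Foxp1* 3’UTR lay in no AGO2 cluster.

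Most *Foxp1* assignments were to miR-124-3p and intronic (8 of 12 in WT, 12 of 18 and 4 of 8 in *Mov10* Deletion). The intronic region at chr6:99060252-99060350 was listed under miR-124-3p in all libraries, with scores of 14.3, 18.5 and 6.61. Its AGO2 cluster had 8 over 1 reads in WT (log2 2.76, −log10 p 1.35), 16 over 2 in replicate 1 (log2 3.80) and 11 over 2 in replicate 2 (log2 3.71), and it was the only cluster outside *Onecut2* that was enriched in both *Mov10* Deletion libraries. *Foxp1* had 2 enriched clusters in WT, 31 in replicate 1 and 8 in replicate 2, a wide spread between the *Mov10* Deletion replicates. In replicate 1, 30 of the 31 were intronic. The highest, at log2 4.51 in WT, 4.50 in replicate 1 and 4.58 in replicate 2, rested on 27, 13 and 10 IP reads over 1 input read.

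*Foxp4* (chr17:47867133-47924632, mm10, minus strand) carried 2 ACCAAAG close together in its 3’UTR, 665 nt and 517 nt from the 3’ end of the gene. The one at 665 nt lay in the WT miR-9-5p target cluster at chr17:47867757-47867885, whose score of 3 is the lowest in the files, and 17.6% of 129-nt windows of this short 3’UTR held a match. The AGO2 cluster over it had a log2 of 2.87 in WT, 3.2 in replicate 1 and 2.25 in replicate 2, and was enriched in replicate 1 alone. The neighbouring AGO2 cluster over the match at 517 nt had 68 over 6 reads in WT (log2 3.26, −log10 p 9.78) and 33 over 5 in replicate 1 (log2 3.52, −log10 p 9.46), enriched in both, and 24 over 8 in replicate 2 (log2 2.84). In replicate 1 the target cluster over the match at 665 nt was listed under miR-124-3p (score 3.23) and not under miR-9-5p. In replicate 2 the single *Foxp4* assignment was miR-9-5p (score 4) in coding sequence, 7553 nt from the 3’ end, with no AGO2 cluster over it in any library. *Foxp4* had 10 enriched clusters of 46 in replicate 1 and 2 of 46 in replicate 2, with the highest log2 at 5.26 (22 over 1 reads) and 4.84 (12 over 1 reads), both away from the 3’UTR.

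*Hes1* (chr16:30065357-30067796, mm10, plus strand), a gene of 2440 nt, had 3 AGO2 clusters in WT and 4 in *Mov10* Deletion. Its miR-9-5p region at chr16:30067680-30067763, 75 nt from the 3’ end of the gene, was listed in WT (score 3.58) and in replicate 1 (5.84) and contained CCAAAGA, which 10% of 84-nt windows of the *Hes1* 3’UTR held. The AGO2 cluster had 10 over 1 reads in WT (log2 3.08, −log10 p 1.83), 6 over 1 in replicate 1 (log2 3.38, −log10 p 1.94) and 7 over 1 in replicate 2 (log2 4.06, −log10 p 2.93). The log2 fold was above the threshold of 3 in all 3 libraries, whereas −log10 p fell short of it in all, so none was enriched. A further miR-9-5p cluster of replicate 1 (score 3.21) lay in coding sequence, over an AGO2 cluster with 1 IP and 3 input reads.

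**Figure D4:**
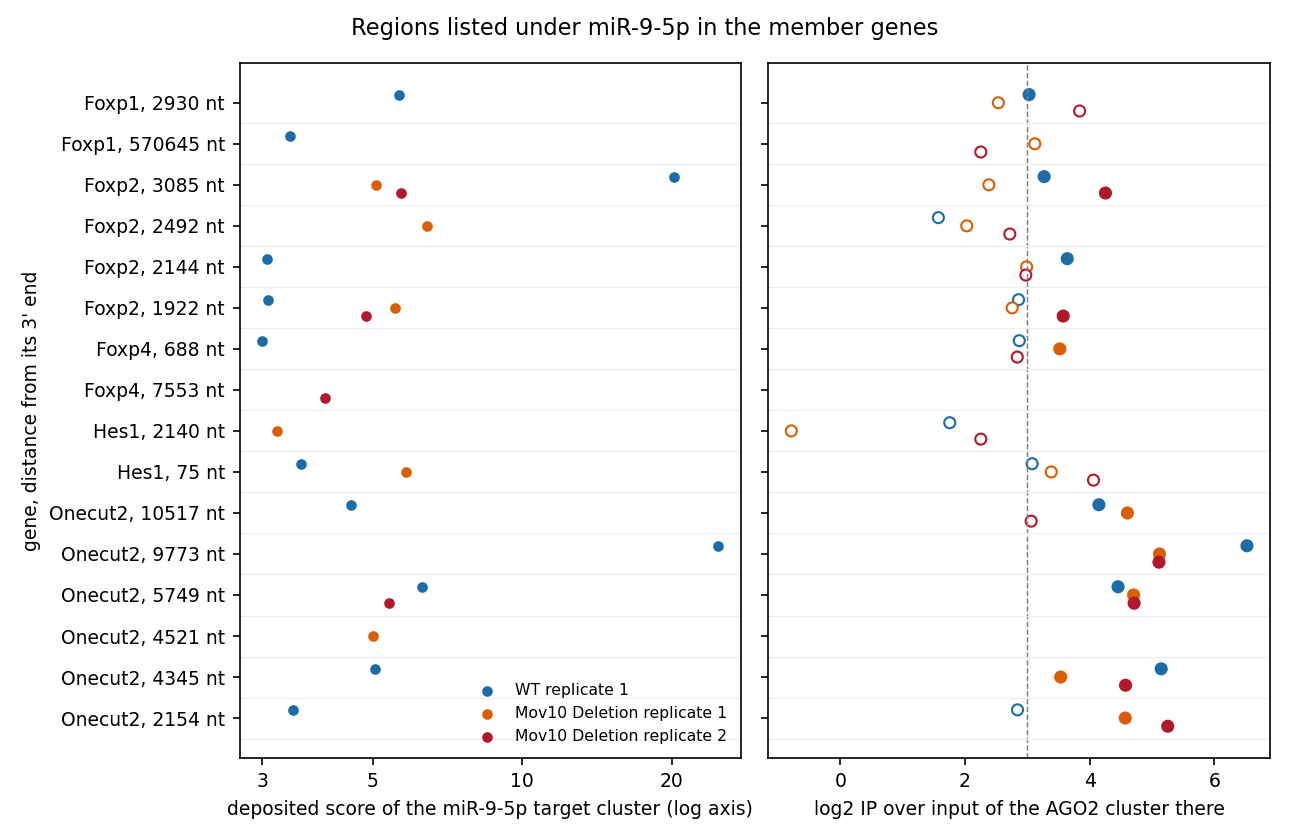
The 16 regions listed under miR-9-5p in the 8 genes. Left, the deposited score (log axis) in each library that listed the region. Right, the log2 IP over input of the overlapping AGO2 cluster with the highest log2, filled where an enriched cluster overlapped the region. The highest scores were 24.8 (*Onecut2*, WT) and 20.2 (*Foxp2*, WT), and the *Hes1* cluster at 75 nt lies above a log2 of 3 in all libraries without being enriched.

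*Nr2e1* (chr10:42561963-42583590, mm10, minus strand) had 1 AGO2 cluster in WT, with a log2 of −1.47, and 18 in each *Mov10* Deletion library, of which the highest reached 3.12 (5 over 1 reads) and 3.25 (4 over 1 reads). It had no target cluster of any miRNA. The ACCAAAG in its 3’UTR, 470 nt from the 3’ end, lay in no AGO2 cluster.

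*Meis1* and *Meis2* had AGO2 clusters in large number and no miR-9-5p assignment. *Meis1* (chr11:18880428-19019651, mm10, minus strand) had 2, 2 and 3 enriched clusters of 62, 140 and 140, none in a 3’UTR. The highest was at log2 3.49 in WT (40 over 3 reads, intronic), 4.12 in replicate 1 (10 over 1 reads) and 4.25 in replicate 2 (8 over 1 reads). Its target clusters were listed under miR-124-3p, miR-125b-5p, miR-135a-5p, miR-138-5p and miR-466i-5p, with 4 assignments in WT, 3 in replicate 1 and 0 in replicate 2, and scores of 3 to 5. The *Meis1* 3’UTR held 2 matches to miR-9-3p, neither within an AGO2 cluster.

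*Meis2* (chr2:115861264-116067537, mm10, minus strand) had 0, 10 and 3 enriched clusters of 182, 324 and 324. The highest by log2 were both intronic, at 4.26 in replicate 1 (11 over 1 reads) and 3.16 in replicate 2 (15 over 4 reads). Of its 11, 10 and 9 assignments, 5 in each library were to miR-124-3p. A region annotated as 5’UTR, at chr2:116064564-116064661, was listed under miR-124-3p in all 3 libraries, with scores of 23.9 in WT and 6.02 and 7.48 in *Mov10* Deletion. Its AGO2 cluster had 25 over 4 reads in WT (log2 2.40), 20 over 3 in replicate 1 (log2 3.54, −log10 p 6.06) and 7 over 1 in replicate 2 (log2 4.06, −log10 p 2.93). Another, intronic, at chr2:115966033-115966150, had miR-124-3p scores of 12.7, 8.97 and 5 and AGO2 clusters at log2 2.22, 3.67 and 1.77, of which that of replicate 1 was enriched. In the *Meis2* 3’UTR the listed miRNAs were miR-466f-3p in WT, miR-181a-5p, miR-124-3p, miR-191-5p and miR-199b-3p in replicate 1 and miR-129-5p in replicate 2.

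Of the 9 matches to miR-9-5p in the 3’UTRs, 6 lay within an AGO2 cluster in each library. They were within a miR-9-5p target cluster for 4 in WT, 2 in replicate 1 and 1 in replicate 2, and within an enriched AGO2 cluster for 2, 2 and 1. The position of a match relative to a cluster was taken from its distance to flanking reference sequences. The share of 3’UTR sequence within AGO2 clusters was not determined, so the 6 of 9 is not read as a link between matches and binding. Of the 9 matches, 1 in *Foxp2* lay 243503 nt from the 3’ end of the gene, in a separate annotated 3’UTR.

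*Onecut2* (chr18:64340032-64398488, mm10, plus strand) had enriched AGO2 clusters spread over its last 12000 nt, where all 6, 12 and 9 of them lay, between 1958 and 11690 nt from the 3’ end. The one with the smallest p-value was the same in each library. In WT, at chr18:64388638-64388803, it had 109 IP over 1 input reads (log2 6.52, −log10 p 27.1). In *Mov10* Deletion, at chr18:64388663-64388797, it had 40 over 2 reads in replicate 1 (log2 5.12, −log10 p 15.0) and 29 over 2 in replicate 2 (log2 5.11, −log10 p 13.0). Of the 8 clusters of the 8 genes that were enriched in both *Mov10* Deletion libraries, 7 were in *Onecut2*. Of these 7, 3 overlapped an enriched WT cluster, those 9758, 5752 and 4301 nt from the 3’ end. The other 4 abut between 1958 and 2352 nt, where *Mov10* Deletion reached log2 4.57 (41 over 3 reads) and 5.25 (16 over 1 reads), and the WT cluster over 2 of the 4 had 51 over 6 reads (log2 2.84, −log10 p 6.72), short of the fold. The thresholds are the same but the reads behind them differ, and whether this difference exceeds that between WT brains could not be tested with 1 WT library.

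In WT this *Onecut2* cluster, 9773 nt from the 3’ end, was listed under miR-9-5p with a score of 24.8, the highest miR-9-5p score in the 8 genes, together with miR-124-3p (10), let-7c-5p (9), let-7d-5p (7), let-7a-5p (4), let-7g-5p, let-7i-5p and miR-153-3p (3 each). In replicate 1 the target cluster at the same place was listed under miR-124-3p (9.5), let-7d-5p (7), let-7e-5p (3.88) and let-7a-5p (3), without miR-9-5p, and in replicate 2 no target cluster was listed there. AGO2 was thus enriched at this place in all 3 libraries, while miR-9-5p was named in 1 of them. Libraries also differed in the number of target assignments as a whole (22074 in WT, 30526 and 13468 in *Mov10* Deletion), and the part of chimeric depth in this was not tested.

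*Onecut2* had 6 miR-9-5p regions in all, more than any other of the 8 genes. The region 5749 nt from the 3’ end was the only one listed in both genotypes, with scores of 6.30 in WT and 5.39 in replicate 2, and AGO2 was enriched there in all libraries (highest log2 4.46, 4.71 and 4.71). Those at 10517, 4345 and 2154 nt were listed in WT only (scores 4.51, 5.06 and 3.46), on AGO2 clusters with log2 4.15, 5.15 and 2.84. AGO2 was enriched in both *Mov10* Deletion libraries at 4345 nt (log2 3.54 and 4.58) and at 2154 nt (log2 4.57 and 5.25). At 10517 nt it was enriched in replicate 1 as well (log2 4.61). The region at 4521 nt was listed in replicate 1 only (score 5) and had no AGO2 cluster in any library. miR-9-3p was listed 5607 nt from the 3’ end in WT (3.32) and in replicate 2 (3), next to the miR-9-5p region at 5749 nt.

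**Figure D5:**
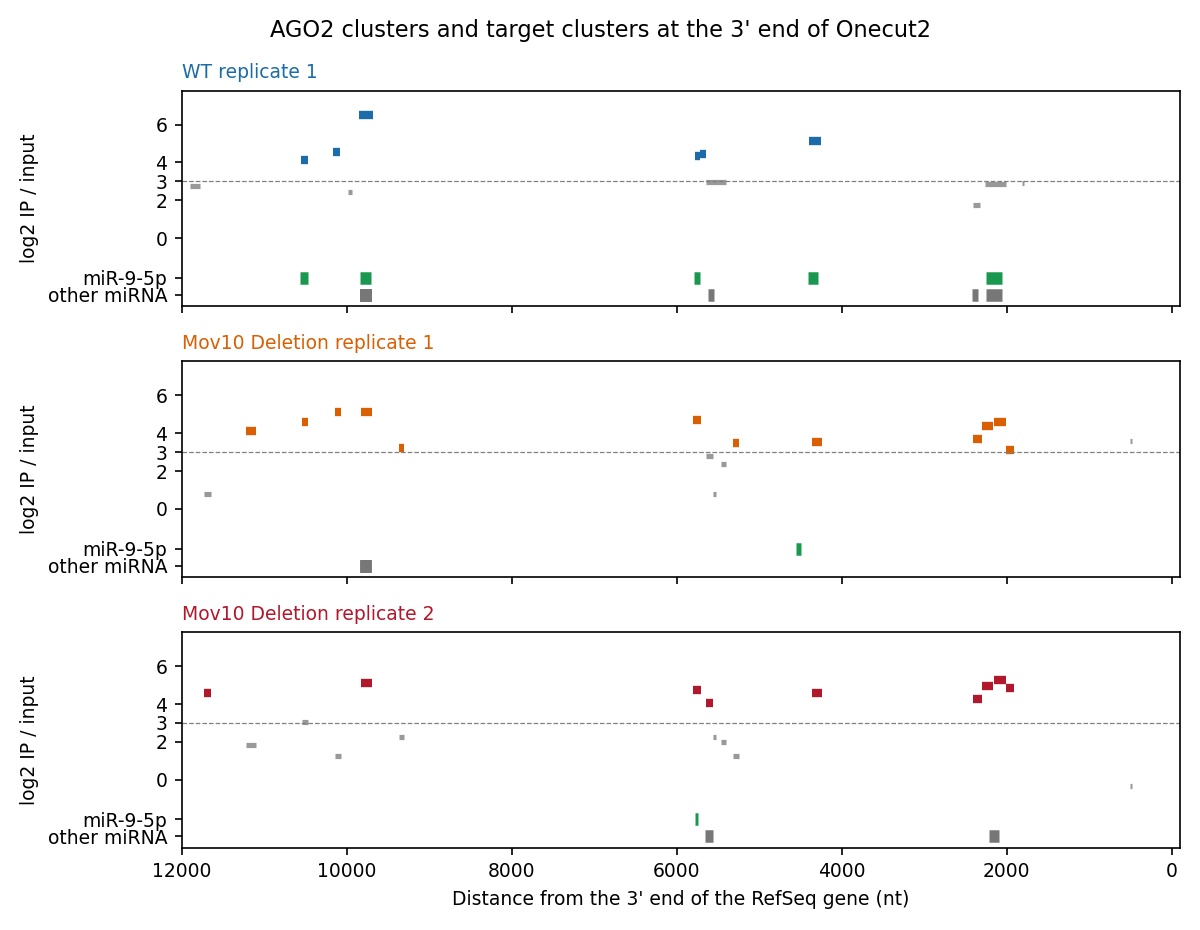
AGO2 clusters and target clusters in the last 12000 nt of *Onecut2*, by library, drawn as for *Foxp2* without the marks for sequence matches. The enriched clusters at 9758 to 9768 nt, 5681 to 5752 nt and 4301 to 4323 nt appear in all 3 libraries, and the group between 1958 and 2352 nt is coloured in both *Mov10* Deletion libraries only.

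Over the 8 genes, miR-9-5p target clusters lay on an enriched AGO2 cluster for 7 of 12 in WT, 0 of 6 in replicate 1 and 3 of 4 in replicate 2, and on any AGO2 cluster for 11, 5 and 3. Of the 7 in WT, *Onecut2* held 4, *Foxp2* 2 and *Foxp1* 1. The same share over all miR-9-5p target clusters of a library was not determined. These counts are therefore not read as a trait of the 8 genes. Enriched clusters lay in the last 5000 nt of their gene for 5 of 14 in WT (35.7%, exact 95% binomial interval 12.8 to 64.9%), 12 of 72 in replicate 1 (16.7%, 8.92 to 27.3%) and 7 of 33 in replicate 2 (21.2%, 8.98 to 38.9%). Of all AGO2 clusters of the 8 genes, 4.84%, 3.45% and 3.45% lay there. The same share over all enriched clusters of a library was not determined, so this position is not read as a trait of the 8 genes either. The intervals cover counting error only, and clusters within 1 gene are not independent. *Onecut2* supplied 1, 5 and 5 of those enriched near the end. No enriched cluster and no miR-9-5p cluster lay in the 10000 nt beyond the annotated end of any of the 8 genes.

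Family members that are not among the 8 genes were compared as a fixed list. None of 8 paralogs (*Foxp3*, *Onecut1*, *Onecut3*, *Nr2e3*, *Hes5*, *Hes6*, *Hes7* and *Meis3*) had a miR-9-5p target cluster in any library. However, only 1, 2 and 0 of them had a target cluster of any miRNA. Their lack of miR-9-5p is therefore not read as a contrast with the 8 genes. AGO2 clusters were present in 5, 6 and 6 of the paralogs, and 0, 3 and 4 had an enriched one. These were *Onecut3*, *Hes5* and *Meis3* in both *Mov10* Deletion libraries and *Onecut1* in replicate 2. Of 10 other reported miR-9 targets, 7, 5 and 3 had a target cluster of any miRNA. A miR-9-5p cluster was found for 3 in WT (*Elavl2*, *Map1b* and *Sirt1*), 1 in replicate 1 (*Map1b*) and 2 in replicate 2 (*Map1b* and *Sirt1*). An enriched AGO2 cluster was found for 1, 5 and 4, beside 18.7%, 40.9% and 32.1% of all genes with an AGO2 cluster. Of all genes with a target cluster, 23.8%, 19.1% and 13.9% had one of miR-9-5p. *Onecut1* was in both lists, so its enriched cluster in replicate 2 counts in each. *Map1b*, which encodes a microtubule-associated protein of axons, had 7, 12 and 9 miR-9-5p clusters.

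Ranked by miR-9-5p target clusters over the 3 libraries, among 2442 genes with at least 1, *Foxp2* had 8 and *Onecut2* 7, and 36 and 50 genes had more. By library, in the order WT, replicate 1 and replicate 2 of *Mov10* Deletion, *Foxp2* had 3, 3 and 2 and *Onecut2* 5, 1 and 1, so that the place of *Onecut2* came mainly from WT. There, 22 genes including *Onecut2* itself had at least 5, whereas all 1480 and 752 genes named in the other libraries had at least 1. The libraries held 2013, 2041 and 924 miR-9-5p assignments, and the part of this difference in the ranks was not tested. *Hes1* had 3 and *Foxp1* and *Foxp4* 2 each. The 5 genes with the most were *Rn18s-rs5* (44), *Celf2* (33), *Map1b* (28), *Ptprd* (22) and *Rbfox1* (20). *Rn18s-rs5* is an rRNA-related locus, and the others are expressed in neurons.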

How the data were processed

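AGO2 chimeric eCLIP clusters of 1 WT and 2 *Mov10* Deletion IP libraries were analysed. The inputs have no files of their own here and enter the fold of each cluster. Per the methods and the processing notes, the authors removed molecular identifiers (UMI-tools 1.1.1), trimmed adapters (cutadapt 3.2), mapped reads to mm10 (STAR 2.7.7a), called clusters with CLIPper and matched miRNAs to chimeric reads (Bowtie 1.2.3). Each AGO2 cluster was deposited with its fold of IP over input as a log2 value and with its p-value on a −log10 scale. For target clusters they deposited a miRNA and a score, whose calculation is not described in the sources used here and which was at least 3. Total reads per library were not given in these files.

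Gene bodies were those of RefSeq on GRCm38.p6, which is the same assembly as mm10. The strand was taken from RefSeq promoters (27025 genes) or GENCODE vM39 (18251), and 4721 genes without one were left out. Of 3931 clusters in the 8 genes, 33 also lay in another gene on the same strand. Both the log2 fold and −log10 p of an enriched cluster had to reach 3. IP and input reads were inferred from fold and p-value (−log10 p within 0.001), which failed for 757 clusters, none of them enriched. Distances are from a cluster's midpoint to the 3’ end of the gene. Features and sequences were read from GRCm39 with GENCODE vM39. Clusters and GRCm39 features were set beside each other by their distance from flanking RefSeq promoter and hairpin sequences found at the same spacing on both sides in both builds, for 7 genes, and coordinates were not converted. *Onecut2* had no such sequences. Python 3.11.15, pandas 2.3.3 and scipy 1.17.1 were used. The inference of reads was tested on data simulated with the same model. That test cannot show whether the authors computed fold and p-value in this way.

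No test between genotypes was made. The members, gene lists, markers, thresholds and named miRNAs were chosen with earlier results of these data known. All 8 members were named, with their highest enriched and all miR-9-5p clusters, and other genes by the fixed lists or by rank in miR-9-5p clusters. Other clusters and single miRNAs were added after their values were seen. Alternatives varied the thresholds, the overlap, the score, single-miRNA clusters, the window at the 3’ end and the *Mov10* Deletion replicate used.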

Additional observations from a re-analysis of the deposited data

How the results depend on the processing

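For *Mov10* Deletion, main values count genes or clusters called in both libraries, and pooled assignments. They were 6 genes with an enriched cluster, 8 enriched clusters (5 in the last 5000 nt), 2 genes with miR-9-5p, a miR-9-5p share of 11.2% and 3 miR-9-5p clusters on an enriched one. With a −log10 p of at least 5, *Mov10* Deletion had 3 genes with an enriched cluster, 3 clusters and 2 near the 3’ end. With a log2 of at least 2, enriched clusters rose from 14 to 29 in WT and to 18 in *Mov10* Deletion, those near the end to 14 and 12, and miR-9-5p clusters on an enriched one to 6 in *Mov10* Deletion. With a score of at least 5, 3 WT genes had miR-9-5p, and the *Mov10* Deletion share was 23.3%. Counting only clusters of a single miRNA, 4 WT miR-9-5p clusters lay on an enriched one. With a window of 10000 nt, 9 WT clusters lay near the end, and with 1000 nt, 1 in WT and 0 in *Mov10* Deletion. With a single *Mov10* Deletion library, the enriched clusters were 33 (without replicate 1) and 72 (without replicate 2), those near the end 7 and 12, and the miR-9-5p clusters on an enriched one 3 and 0; the genes with an enriched cluster were 6 each time, those with miR-9-5p 3 each time, and the share 13.8% and 10%. In an alternative chosen after seeing the data, at least 16 IP reads in each library, *Mov10* Deletion had 2 genes (*Foxp2* and *Onecut2*) and 2 clusters, and WT was unchanged at 5 and 14. The other settings kept their values within 1.5-fold (38 of 58 comparisons in all). Each alternative adds or removes clusters by its construction. No paired analysis was possible because the groups share 1 replicate number and no result came from a test. Whether depth accounts for the missing calls of *Hes1* and *Nr2e1* was not tested.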
